A study of Mus musculus with 8 samples.

Results

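Stefins and cystatins, the inhibitors of papain-like cysteine proteases, were described in mouse skin as a set of 7 genes out of the 55418 genes in the deposited tables. The genes were found by their symbol in every library, and comprised the stefin A genes Stfa1, Stfa2, Stfa3 and Cstdc5, the stefin B gene Cstb, and the secreted cystatins Cst3 and Cst6. They were chosen by their FPKM levels in these same libraries, so those levels are given below as a description, with no test. The sequenced RNA came from whole skin of mice labelled hairloss, which carry a spontaneous mutation, and from skin of wildtype mice. Skin was collected at postnatal days 0, 16, 19 and 28, with 1 library for each genotype and day and 8 libraries in all. The labels name neither the mutated gene nor the strain, and they do not say how many animals went into a library.

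Stefins are small inhibitors without a secretion signal that act inside the cell, whereas cystatin C, made by Cst3, and cystatin M/E, made by Cst6, are secreted. Both kinds lodge reversibly in the active site of cathepsins such as B, H, L and S, and cystatin M/E also blocks legumain, an asparaginyl endopeptidase. In human epidermis stefin A is a component of the cornified envelope, the crosslinked shell of dead keratinocytes, and in mice loss of Cst6 causes a scaling skin disease. The mouse carries a row of stefin A copies on chromosome 16, and several of them are known to be transcribed in neutrophils as well as in epidermis.

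Levels are in FPKM, a fragment count divided by transcript length and library size, so different genes can be set side by side approximately. The sources used here do not say which length was used, which matters most for short transcripts such as those of stefin A. Fragment numbers given here use the mean annotated transcript length. Depth, estimated from the spacing of the lowest values, was 31600000 to 43700000 fragments, and 3 fragments of a 1 kb transcript then equal 0.0687 to 0.0949 FPKM. Intervals and floors given here cover counting error only. The keratinocyte genes that define skin, Krt5, Krt14, Krt1 and Krt10, were above 76 FPKM in all 8 libraries. The sex markers Xist and Ddx3y matched between the genotypes at day 16 alone, where Ddx3y stood at 20.4 FPKM in hairloss and 20.1 FPKM in wildtype skin. At days 0, 19 and 28 Ddx3y stood at 0, 19.4 and 0 FPKM in hairloss and 16.3, 15.8 and 16.5 FPKM in wildtype skin. Xist stood at 76.1, 0.115 and 50.2 FPKM in hairloss and 51.3, 12.4 and 0.166 FPKM in wildtype skin at those days. Sex and genotype were therefore not separated at these 3 days. A value of exactly 0 can be a failed estimate in these tables: the abundant collagen gene Col3a1 was listed at 0 in hairloss skin at days 0 and 28 and in wildtype skin at day 19. No member was at 0 in any library, and all 7 passed a filter of 1 FPKM in some library. Stfa2 reached that level in 6 of the 8 libraries and the others in all 8.

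The stefin A genes lie within one stretch of chromosome 16 (GENCODE M21 on mm10). Stfa1 (ENSMUSG00000071562) occupies chr16:36276951-36285373 on the forward strand. Cstdc5 (ENSMUSG00000071561, also called BC100530) lies at chr16:36359382-36367748, Stfa2 (ENSMUSG00000022902) at chr16:36403992-36408457 and Stfa3 (ENSMUSG00000054905) at chr16:36450537-36455392, all on the reverse strand. Each has 3 exons in the transcript used here. The 4 genes were not equally alike. Over aligned coding bases Stfa1 and Cstdc5 were 97.9% identical, but Stfa3 shared 79.6% with Stfa1, 79.3% with Cstdc5 and 80.9% with Stfa2, and Stfa2 shared 74.4% with Stfa1. The last 90 coding bases of the 4 genes are printed to show where the copies differ. Stfa1 and Cstdc5 are almost the same over this stretch, so most of it cannot tell their reads apart. Capitals mark the 33 positions at which the genes differ, and the other 57 are common to all. The bases are numbered from the A of the start codon, and run over 202 to 291 in Stfa1 and Cstdc5 and over 220 to 309 in Stfa2 and Stfa3 (GENCODE M21 transcripts).
Stfa1: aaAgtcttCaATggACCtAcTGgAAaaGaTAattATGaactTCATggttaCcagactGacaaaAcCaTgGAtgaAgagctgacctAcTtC
Cstdc5: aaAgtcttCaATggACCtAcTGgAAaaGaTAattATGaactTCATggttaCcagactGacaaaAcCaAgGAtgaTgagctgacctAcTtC
Stfa2: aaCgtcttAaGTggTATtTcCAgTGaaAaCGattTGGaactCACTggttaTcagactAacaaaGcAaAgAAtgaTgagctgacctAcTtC
Stfa3: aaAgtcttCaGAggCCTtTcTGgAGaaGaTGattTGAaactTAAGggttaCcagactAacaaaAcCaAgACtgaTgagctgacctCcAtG

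None of the 50-base windows of the Stfa3 transcript occurred in another gene of the row. The share of 50-base windows also found in another copy was 14.7% in Stfa2, where the partner was Stfa2l1. It was 22.5% in Stfa1 and 25.1% in Cstdc5, which share windows with each other and with Cstdc6, and Cstdc5 also with Csta1. The sources used here do not say how reads that match several copies were assigned, so the division of reads between Stfa1 and Cstdc5 is uncertain, and the summed level of the 4 genes is given beside the single ones. A predicted antisense transcript, Gm15845, overlaps Cstdc5 on the opposite strand and stood at or below 0.150 FPKM in every library, against 3017 FPKM for Cstdc5 at its highest.

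The promoters of the 4 genes, from 250 bases before to 50 bases after the annotated start, are printed because the genes showed one pattern over the 8 libraries. Sequences are from RefSeq on GRCm38.p6, whose table held 5 of the 7 members. Capitals mark the runs of at least 12 bases that all 4 promoters share exactly. The windows are chr16:36276898-36277197 on the forward strand for Stfa1, and on the reverse strand chr16:36367521-36367820 for Cstdc5, chr16:36408314-36408613 for Stfa2 and chr16:36455343-36455642 for Stfa3.
Stfa1: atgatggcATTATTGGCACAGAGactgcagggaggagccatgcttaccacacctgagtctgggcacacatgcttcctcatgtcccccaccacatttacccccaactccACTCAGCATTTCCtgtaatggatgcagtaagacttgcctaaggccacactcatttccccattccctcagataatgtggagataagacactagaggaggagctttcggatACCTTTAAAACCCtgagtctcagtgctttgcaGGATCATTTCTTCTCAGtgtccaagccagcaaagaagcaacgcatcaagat
Cstdc5: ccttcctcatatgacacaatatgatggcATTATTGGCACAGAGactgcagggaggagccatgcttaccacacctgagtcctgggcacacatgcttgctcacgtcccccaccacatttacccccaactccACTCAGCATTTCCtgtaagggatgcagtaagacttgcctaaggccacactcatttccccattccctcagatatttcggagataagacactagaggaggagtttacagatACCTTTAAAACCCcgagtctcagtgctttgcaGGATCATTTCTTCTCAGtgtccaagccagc
Stfa2: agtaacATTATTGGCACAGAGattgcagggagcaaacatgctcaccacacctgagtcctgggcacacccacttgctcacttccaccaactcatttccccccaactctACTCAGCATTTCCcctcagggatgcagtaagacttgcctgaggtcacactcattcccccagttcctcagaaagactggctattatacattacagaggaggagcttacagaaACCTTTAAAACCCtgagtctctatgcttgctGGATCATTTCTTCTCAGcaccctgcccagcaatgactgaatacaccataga
Stfa3: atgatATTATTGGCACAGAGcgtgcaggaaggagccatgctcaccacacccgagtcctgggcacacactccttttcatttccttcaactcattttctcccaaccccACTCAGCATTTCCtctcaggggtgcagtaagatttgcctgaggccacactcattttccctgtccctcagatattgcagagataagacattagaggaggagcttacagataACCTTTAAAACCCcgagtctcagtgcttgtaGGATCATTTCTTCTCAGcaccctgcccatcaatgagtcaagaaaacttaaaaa

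The 4 shared runs held 58 of the 300 bases of each promoter. Of the 27025 mouse promoters in the same table, ATTATTGGCACAGAG occurred in 5, ACTCAGCATTTCC in 9, ACCTTTAAAACCC in 8 and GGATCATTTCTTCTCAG in 6. Stfa2l1, a further stefin A copy, had all 4 runs, whereas Cstdc4 had ACCTTTAAAACCC and lacked the other 3 in full. Whole-window identity among the members ran from 71.5% between Stfa2 and Cstdc5 to 83.8% between Stfa1 and Cstdc5. The Cst3 promoter contained none of the shared runs and aligned with 38.3% to 41.7% identity.

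Motifs were searched by their letters on both strands. The TATA-like box TTTAAA, which lies inside the shared run ACCTTTAAAACCC, was present in 4 of 4 stefin A promoters, against 13.2% of all promoters. The promoters are copies of one another and the run was marked because all 4 share it, so nothing is read from the 4 of 4. The box began at position -30 in Stfa1, -29 in Stfa2, -31 in Stfa3 and -9 in Cstdc5 relative to the annotated start. The standard TATAAA was in 0 of 4 (14.2% of all promoters). The AP-1 motif TGANTCA was found in Stfa3 alone, at position 30 after the start (7.93% of all promoters), and the C/EBP motif TTGCNNAA in Stfa1 and Cstdc5 (10.8%). The NF-kB motif, GGGA and TTCC with any 2 bases between them, was in 0 of 4 windows (1.43% of all promoters), and the GRHL motif AACNGGTT in 0 of 4 (2.01%).

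The stefin A genes were abundant in newborn skin of both genotypes. At days 16, 19 and 28 they were still abundant in hairloss skin and scarce in wildtype skin. Stfa3 had the highest level of the 4 in all 8 libraries. Hairloss libraries of days 0, 16, 19 and 28 held 7111, 8940.4, 10773 and 3978 FPKM of Stfa3. In wildtype skin it stood at 2872, 15.3, 12.6 and 45.9 FPKM at the same days. Among 21899 protein-coding genes Stfa3 ranked first in hairloss skin at days 0, 16 and 19 and 3 at day 28, whereas in wildtype skin its rank was 5 at day 0 and then 5009, 5575 and 1476. The ratio of hairloss to wildtype was 2.48, 586, 857 and 86.7 over the 4 days.

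Cstdc5 was the second most abundant copy. Hairloss libraries held 1149, 2167, 3017 and 898 FPKM of it at days 0, 16, 19 and 28. Wildtype libraries held 938, 9.54, 4.23 and 8.30 FPKM. The newborn pair was close, and at the 3 later days the lowest hairloss level was 94.1 times the highest wildtype level. On the log2(FPKM + 1) scale, which understates the difference of low genes, Cstdc5 differed by 0.29, 7.68, 9.17 and 6.59 at the 4 days.

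Stfa1, the near-copy of Cstdc5, followed the same course at a lower level. It stood at 228, 399, 520.2 and 76.5 FPKM in hairloss skin and at 208, 2.88, 2.26 and 2.20 FPKM in wildtype skin. The wildtype level at day 0 was 72.2 times that at day 16, while hairloss skin held more at day 16 than at day 0. The log2 differences were 0.13, 6.69, 7.32 and 4.60 at days 0, 16, 19 and 28.

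Stfa2 was the least abundant of the 4 in hairloss skin, at 173, 138, 229 and 22.5 FPKM over the 4 days. Wildtype skin held 54.1, 0.532, 0.120 and 2.52 FPKM. Its wildtype value at day 19 corresponds to about 2 fragments, with a Wilson 95% interval of 0.0306 to 0.407 FPKM, so the size of the difference at that day is set largely by the constant added before taking logs. It was 7.68 with 1 added, 10.02 with 0.1 and 5.51 with 5. At day 0 Stfa2 stood 3.20-fold higher in hairloss skin, a log2 difference of 1.66, and at day 28 the log2 difference was 2.74.

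**Figure D1:**
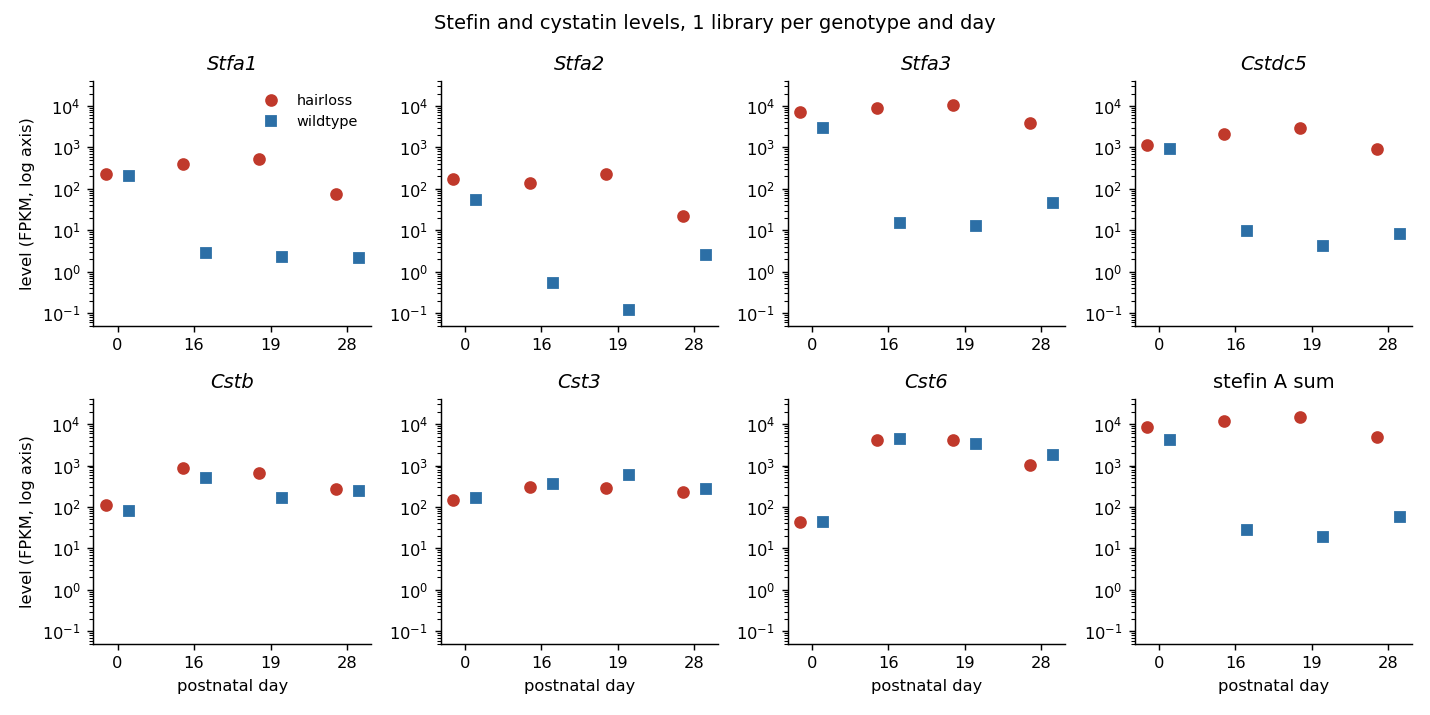
Levels of the 7 members and of the summed stefin A genes in FPKM on a log axis by postnatal day; circles are hairloss and squares wildtype libraries, 1 library per point. The stefin A genes separate by genotype from day 16 on, with summed levels of 11644 FPKM in hairloss and 28.2 FPKM in wildtype skin at day 16, while the genotypes differ by less than 4-fold in Cstb, Cst3 and Cst6 at every day.

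If each read shared among the 4 genes was counted once, its assignment alters their summed level only through the differing transcript lengths. Whether shared reads were counted once, several times or dropped is not known, and reads shared with Cstdc6, Csta1 or Stfa2l1 can also alter the sum. Over the 4 days the summed level was 8662, 11644, 14539 and 4975 FPKM in hairloss skin. In wildtype skin it was 4072, 28.2, 19.2 and 58.9 FPKM. As a share of all protein-coding FPKM this was 2.11%, 2.38%, 3.19% and 1.14% in the hairloss libraries and 1.03%, 0.00548%, 0.00469% and 0.0117% in the wildtype libraries. The lowest hairloss value over all 4 days was thus above the highest wildtype value, which was that of newborn skin. The log2 difference was 1.09 at day 0 (counting range 1.07 to 1.11), 8.64 at day 16 (8.50 to 8.78), 9.49 at day 19 (9.34 to 9.65) and 6.38 at day 28 (6.28 to 6.48). Each range sets the lower Wilson 95% bound of one library against the upper bound of the other. It is therefore wider than a 95% interval of the difference, and it rests on the estimated depth. The mean log2 difference over days was 6.40 ± 3.78 (SD, n = 4 days). The newborn difference rested on Stfa3: without that gene, an alternative chosen after seeing the data, the day 0 value was 0.37, and those at days 16, 19 and 28 were 7.60, 8.95 and 6.15. In whole skin, fewer cells of a type and less RNA per cell cannot be told apart.

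Differences were called large when they reached 2-fold on the log2(FPKM + 1) scale with at least 1 FPKM in either library. At day 0, 2 of the 7 members, Stfa2 and Stfa3, were past this size in the higher direction, while 1.49% of 16685 genes compared were higher and 1.58% lower. At day 16 the 4 stefin A genes were past it, against a background of 5.34% higher and 7.39% lower. At day 19, 5 members were higher, the stefin A genes and Cstb, and 1 was lower, Cst3, against 6.53% and 5.76%. At day 28 the 4 stefin A genes were past it, against 5.6% and 6.42%. Since the members were picked with these levels known, nothing is read from the counts.

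The make-up of the sum differed between libraries less than its size. Stfa3 supplied 82.1%, 76.8%, 74.1% and 80.0% of it in the hairloss libraries of days 0, 16, 19 and 28, and 70.5%, 54.1%, 65.5% and 77.9% in the wildtype libraries. The Stfa3 share was thus higher in hairloss skin in each of the 4 pairs. Cstdc5 came second with 13.3% to 20.8% in hairloss and 14.1% to 33.8% in wildtype libraries. Stfa1 supplied 1.54% to 3.58% in hairloss and 3.73% to 11.8% in wildtype libraries, and Stfa2 no more than 4.27% in any.

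**Figure D2:**
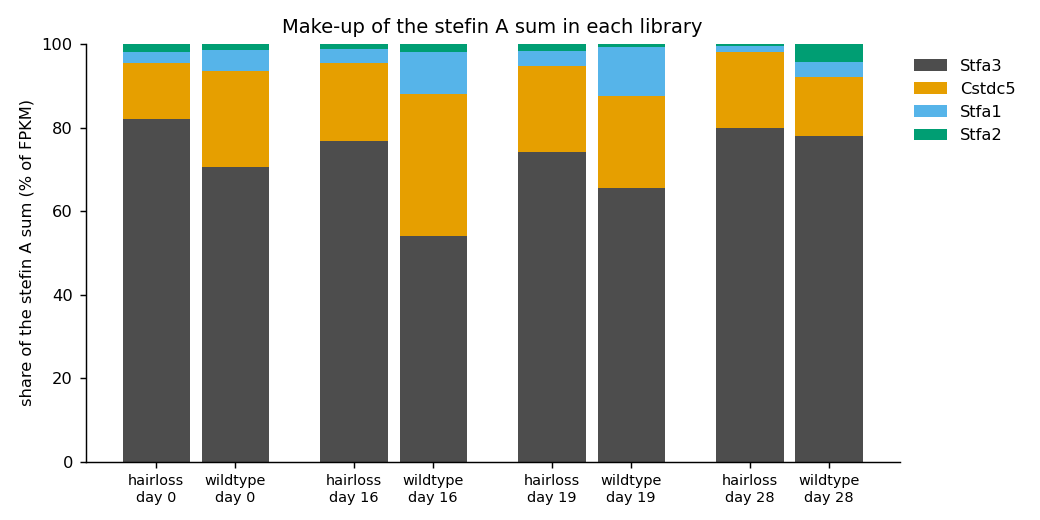
Share of the summed stefin A FPKM supplied by each of the 4 genes, in percent, in the 8 libraries, with hairloss left of wildtype at each day. Stfa3 is the largest part everywhere, from 54.1% in wildtype skin at day 16 to 82.1% in hairloss skin at day 0.

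The row on chromosome 16 holds further stefin A copies that are no members, and in hairloss skin none of them exceeded 117 FPKM. Stfa2l1 stood at 11.2, 72.8, 22.4 and 0.286 FPKM in hairloss skin and at 7.01, 0, 0.417 and 0 FPKM in wildtype skin at days 0, 16, 19 and 28. Cstdc4 stood at 18.5, 117, 33.1 and 0.173 FPKM in hairloss skin and at 14.8, 0.200, 0 and 0 FPKM in wildtype skin. Cstdc6 stood at 11.1, 12.2, 27.2 and 3.79 FPKM in hairloss skin and at 5.59, 0, 0 and 0.184 FPKM in wildtype skin. All 3 were past 2-fold higher in hairloss skin at days 16 and 19, and at day 28 this held for Cstdc6, the only one of them that reached 1 FPKM. Cstdc3, also on the list, was not matched.

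Csta1, Csta2 and Csta3 lie in the same row and were added after their values were seen. Csta1, at the outer end, stood at 39.5, 22.5, 46.3 and 34.2 FPKM in hairloss skin and at 23.6, 30.0, 50.8 and 34.4 FPKM in wildtype skin. It stayed within 2-fold at all 4 days. In wildtype skin at days 16 and 19 Csta1 alone was above the summed level of the 4 stefin A members, 28.2 and 19.2 FPKM. Csta2 reached 8.01 FPKM in hairloss skin at day 16 and was listed at 0 in wildtype skin at days 16 and 19. Csta3 reached 11.1 FPKM in hairloss skin at day 19 and was likewise listed at 0 in wildtype skin at days 16 and 19. The row of copies thus contained 1 gene with close levels in both genotypes next to genes that differed widely.

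**Figure D3:**
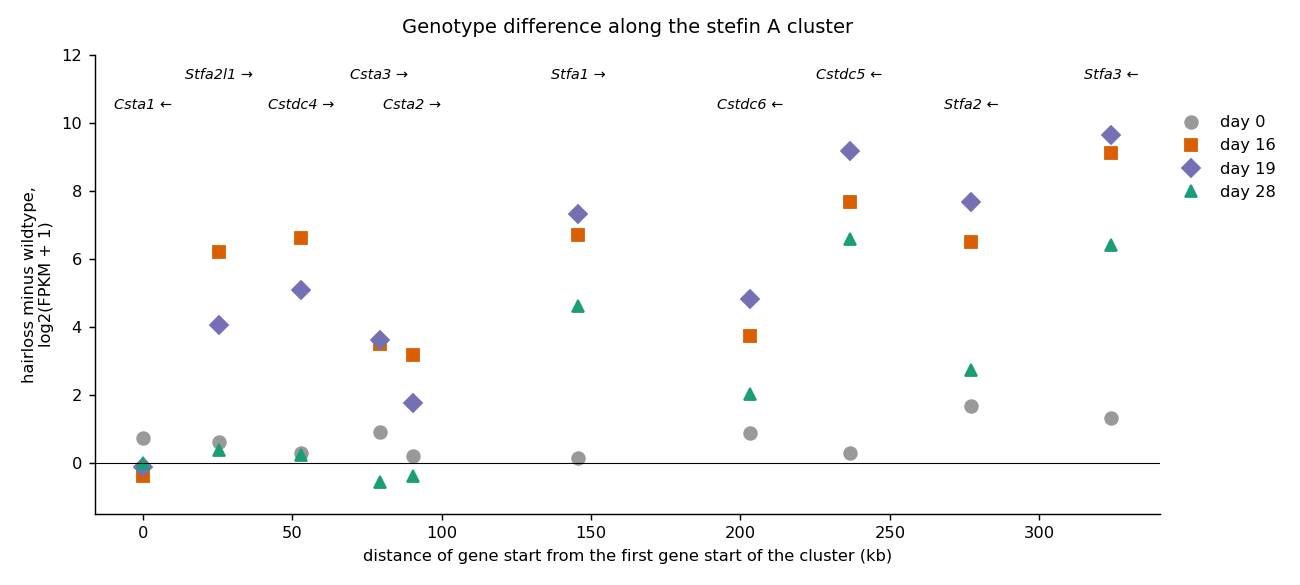
Log2(FPKM + 1) difference, hairloss minus wildtype, for the 10 genes of the stefin A row by distance of each gene's start from the first one in kb; arrows give the strand and symbols the day. Csta1 stays between -0.40 and 0.72, whereas Cstdc5 and Stfa3 reach 9.17 and 9.63 at day 19.

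Within hairloss skin the copies followed different courses after day 16. Stfa3, Cstdc5, Stfa1 and Stfa2 had more RNA at day 19 than at day 16, by 1.21, 1.39, 1.30 and 1.66-fold, and Cstdc6 by 2.23-fold. At day 28 they still held 0.445, 0.414, 0.192 and 0.163 of their day 16 level, and Cstdc6 held 0.310. Stfa2l1, Cstdc4 and Csta2 had their highest level at day 16. By day 19 these 3 held 0.308, 0.283 and 0.301 of it, and by day 28 0.00392, 0.00149 and 0.0210. Csta3 followed neither course, at 1.07 times its day 16 level at day 19 and listed at 0 at day 28, and Csta1 was above its day 16 level at both, by 2.06 and 1.52-fold. With 1 library per day these courses have no replicate check.

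The summed neutrophil markers also had their highest levels in hairloss skin at days 16 and 19. The summed level of the 12 markers was 12.8, 47.6, 50.4 and 5.60 FPKM in hairloss skin and 12.04, 3.10, 7.53 and 2.72 FPKM in wildtype skin at days 0, 16, 19 and 28. Hairloss was the higher of the pair for 9 of the 12 at day 0, 12 at day 16, 11 at day 19 and 7 at day 28. At day 16, 8 of them reached 1 FPKM, 7 in the hairloss library alone. Ly6g, a defining neutrophil gene, stood at 0.302 FPKM in hairloss skin at day 16 and was listed at 0 at days 19 and 28. The markers did not share one course. The receptor genes Csf3r and Cxcr2 kept 0.758 and 0.766 of their day 16 level at day 19, and 0.0923 and 0.330 of it by day 28. Retnlg, Camp and Ngp kept 0.624, 0.568 and 0.839 at day 19 and 0.0861, 0.257 and 0.0174 by day 28. Mmp9, the marker with the highest level at days 16 and 19, was higher at day 19 than at day 16, by 1.80-fold, and held 0.0393 of its day 16 level by day 28. Camp was highest in newborn skin, at 6.15 FPKM in hairloss and 7.53 FPKM in wildtype skin.

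Keratinocyte genes also changed over the days in hairloss skin, and for Krt6b and S100a8 only the hairloss levels are given. Krt6b, a keratin of stressed epidermis, stood at 101, 569.9, 833 and 79.2 FPKM in hairloss skin over the 4 days, and S100a8, which both neutrophils and keratinocytes make, at 31.9, 1984, 3499 and 266 FPKM. Both, like Stfa3 and the neutrophil marker Mmp9, were higher at day 19 than at day 16. The other days were less alike. At days 0 and 28 Stfa3 held 0.795 and 0.445 of its day 16 level, Krt6b 0.176 and 0.139, and S100a8 0.0161 and 0.134. The 5 basal keratinocyte markers summed to 1427, 7155, 7064 and 3245 FPKM in hairloss skin and to 1127, 2624, 1748 and 1471 FPKM in wildtype skin. Suprabasal markers summed to 8475, 7232, 8571 and 10885 FPKM in hairloss skin and to 5869, 3530.1, 8760 and 3025 FPKM in wildtype skin. Hairloss was the higher of the pair for 4, 4, 4 and 5 of the 5 basal markers at days 0, 16, 19 and 28. For the 5 suprabasal markers it was the higher for 3, 4, 2 and 5. Krt5 and Krt14 made up most of the basal sums. Trp63, another basal marker, stood at 67.4 FPKM in hairloss and 68.1 FPKM in wildtype skin at day 16. At day 19 Krt1 stood at 2541 FPKM in hairloss and 218 FPKM in wildtype skin, and Krtdap at 3114 and 6162 FPKM. The part of any cell type in the stefin A levels was not tested.

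Over the 8 libraries, which share day and genotype, the log2 stefin A sum had a Pearson correlation of 0.714 with the mean log2 level of the neutrophil markers and 0.719 with that of the suprabasal markers. By gene, the same correlations were 0.708 and 0.719 for Stfa3, 0.729 and 0.728 for Cstdc5, 0.782 and 0.715 for Stfa1 and 0.766 and 0.625 for Stfa2. They were 0.825 and 0.683 for Cstdc6, 0.939 and 0.475 for Stfa2l1 and 0.904 and 0.433 for Cstdc4. For Csta1 the values were -0.167 and 0.183, for Csta2 0.872 and 0.328 and for Csta3 0.963 and 0.335. Among members, Stfa1, Stfa2, Stfa3 and Cstdc5 correlated with the sum at 0.974 to 0.999. Cstb, Cst6 and Cst3 did so at 0.0889, -0.385 and -0.663.

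**Figure D4:**
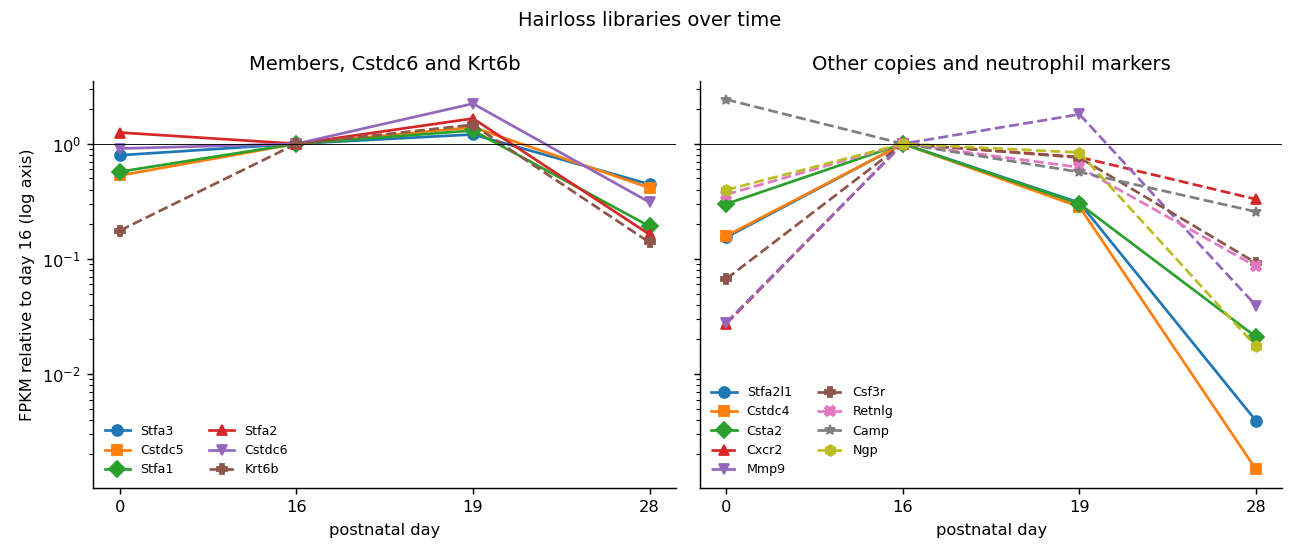
FPKM in the 4 hairloss libraries relative to day 16, on a log axis, for the stefin A members with Cstdc6 and Krt6b (left) and for other stefin A copies with 6 neutrophil markers (right, dashed); the grouping of the copies was chosen after the values were seen. Stfa3 keeps 0.445 of its day 16 level at day 28, whereas Stfa2l1 keeps 0.00392.

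Cstb encodes stefin B, the stefin that most cell types make, on chromosome 10 (ENSMUSG00000005054, chr10:78425669-78427622, forward strand). Its coding sequence was 52.1% identical to that of Stfa3. Cstb stood at 113, 851, 643 and 277 FPKM in hairloss skin and at 80.2, 509, 166 and 248 FPKM in wildtype skin. Hairloss was the higher of the pair at each day, by 1.41-fold, 1.67-fold, 3.87-fold and 1.12-fold, and only day 19 was past the 2-fold size. Both genotypes had their highest level at day 16, and at day 19 Cstb stood at 0.756 of it in hairloss skin and at 0.327 in wildtype skin.

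Cst3 encodes cystatin C, the broadly made secreted inhibitor, on chromosome 2 (ENSMUSG00000027447, chr2:148871722-148875692, reverse strand). It stood at 149, 310.2, 291 and 229 FPKM in hairloss skin and at 167, 360.5, 599.6 and 277 FPKM in wildtype skin. Hairloss was the lower of the pair at all 4 days, with log2 differences of -0.17, -0.22, -1.04 and -0.27. Only the day 19 pair was past 2-fold, where wildtype skin had its peak. Macrophages and dendritic cells make cystatin C, and at day 19 the 10 markers of these cells summed to 543 FPKM in hairloss and 616 FPKM in wildtype skin, with 0 of 10 past 2-fold. At day 16 all 10 were past 2-fold higher in hairloss skin, with sums of 789.99 FPKM in hairloss and 274 FPKM in wildtype skin, while Cst3 was not. Their part in the Cst3 levels was not tested.

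Cst6 encodes cystatin M/E, the inhibitor of cathepsin L and legumain in the upper epidermis and hair follicle, on chromosome 19 (ENSMUSG00000024846, chr19:5344705-5349574, reverse strand). It stood at 44.7, 4190.1, 4050.5 and 1032 FPKM in hairloss skin and at 42.4, 4280.2, 3381 and 1815 FPKM in wildtype skin. The spread over days was far wider than that between genotypes. The day 16 level was 93.8 times the day 0 level in hairloss skin and 101 times in wildtype skin. At days 16 and 19 Cst6 ranked 5 among protein-coding genes in hairloss skin and 6 in wildtype skin. The log2 differences between genotypes were 0.07, -0.03, 0.26 and -0.81, none past 2-fold, and the sign changed between days.

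The order of the members changed with genotype. In hairloss skin at day 16 the order from high to low was Stfa3, Cst6, Cstdc5, Cstb, Stfa1, Cst3 and Stfa2. In wildtype skin at the same day it was Cst6, Cstb, Cst3, Stfa3, Cstdc5, Stfa1 and Stfa2. With 1 library per group there is no replicate spread, so neighbours in these orders that lie within 2-fold, such as Stfa1 and Cst3 in hairloss skin, were not set apart.

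The remaining cystatins were scarce. Of 14 such genes, 7 (Cst8, Cst9, Cst10, Cst11, Cst12, Cst13 and Cstl1) were listed at 0 in all 8 libraries, and 4 reached 1 FPKM in some library. Fetub, a fetuin of the cystatin superfamily that inhibits the metalloprotease ovastacin in mice, stood at 2.32, 8.89, 10.2 and 10.3 FPKM in hairloss skin and at 0.290, 0.294, 0.237 and 0.318 FPKM in wildtype skin. Hairloss was higher at 4 of 4 days, and wildtype skin was below 1 FPKM at each. The mean log2 difference was 2.65 ± 0.34 (SE), with an adjusted p of 0.295 by limma with day as a block and Benjamini-Hochberg adjustment over 18724 genes, so it did not pass the threshold. In that fit 5 genes, 0.0267% of those tested, passed as higher and 2, or 0.0107%, as lower. At an unadjusted p below 0.05, 6.85% were higher and 6.56% lower.

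The list of other candidate inhibitors of cysteine proteases included serpins, and which proteases each of them blocks was not tested. Serpinb3b, one of the mouse relatives of human squamous cell carcinoma antigen, stood at 6.27, 32.1, 52.1 and 21.4 FPKM in hairloss skin and at 5.29, 0.878, 3.70 and 0.689 FPKM in wildtype skin. Its neighbour Serpinb3a stood at 4.35, 22.8, 30.2 and 8.33 FPKM in hairloss skin and at 25.8, 0.1004, 0.147 and 0 FPKM in wildtype skin. Both were past 2-fold higher in hairloss skin at days 16, 19 and 28, and Serpinb3a was lower in hairloss skin at day 0. Serpinb6c was past 2-fold higher at days 16 and 19, with hairloss levels of 4.91 and 11.5 FPKM and wildtype levels of 0.358 and 0.631 FPKM. Serpinb13, an inhibitor of cathepsins K and L, ran the other way, at 0.190, 0.421, 0.548 and 0.772 FPKM in hairloss skin and 0.971, 2.52, 0.975 and 2.07 FPKM in wildtype skin. Of 8 such genes tested with limma, 0 passed the adjusted threshold, and 2 were higher and 1 lower at an unadjusted p below 0.05.

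At days 16, 19 and 28 the proteases that stefins and cystatins block differed less than the stefin A genes. The stefin A genes were chosen by their levels in these libraries, so nothing is read from this contrast. Of 11 cysteine proteases, cathepsins B, C, F, H, K, L, O, S, W and Z and legumain, 0 were past 2-fold at day 0, 4 were higher at day 16, 2 at day 19 and 0 at day 28, and none was lower at any day. Over all genes compared, 1.49%, 5.34%, 6.53% and 5.6% were higher at the 4 days, and 1.58%, 7.39%, 5.76% and 6.42% lower. The median log2 difference of the list was -0.02, 0.58, 0.13 and -0.20 at days 0, 16, 19 and 28, beside -0.08 to 0.00 over all genes compared. In the limma fit 0 of 11 passed the adjusted threshold and 1, Ctsl, was higher at an unadjusted p below 0.05.

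Ctsl encodes cathepsin L, whose loss in furless mice causes periodic shedding of hair. It stood at 186, 948, 491 and 259.6 FPKM in hairloss skin and at 104, 449, 185 and 267 FPKM in wildtype skin. Its mean log2 difference was 0.82 ± 0.26 (SE), with an adjusted p of 0.343 by limma. Cathepsin C, the activator of granule serine proteases, stood at 145 and 118 FPKM in hairloss libraries at days 16 and 19, where wildtype libraries held 68.5 and 48.6 FPKM. These 2 genes were past 2-fold at both days.

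Ctss, the cathepsin of antigen-presenting cells, stood at 11.3, 117, 75.7 and 46.8 FPKM in hairloss skin and at 14.7, 20.2, 47.4 and 23.6 FPKM in wildtype skin. Lgmn, which encodes legumain, stood at 39.3, 81.8, 59.9 and 34.1 FPKM in hairloss skin and at 40.2, 25.7, 31.8 and 30.4 FPKM in wildtype skin. Both were past 2-fold at day 16, the day at which all 10 macrophage and dendritic cell markers were as well. The adjusted p by limma was 0.427 for Ctss and 0.400 for Lgmn. Their relation to these markers was not tested.

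Among the cysteine cathepsins Ctsb was second to Ctsl in level, and it stood at 84.6, 334, 242 and 135 FPKM in hairloss skin and at 86.0, 356, 170.5 and 249 FPKM in wildtype skin. Ctsh ranged from 34.2 to 100.3 FPKM in hairloss and from 27.2 to 103 FPKM in wildtype skin, Ctsz from 44.3 to 82.8 and from 46.7 to 60.3 FPKM, and Ctsk, the cathepsin of collagen breakdown, from 32.7 to 85.05 and from 30.5 to 164 FPKM. Ctsf ranged from 12.8 to 33.3 FPKM in hairloss and from 10.6 to 43.3 FPKM in wildtype skin. Ctso and Ctsw stayed below 9 FPKM in all libraries. None of these 7 was past 2-fold at any day.

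Setting summed levels side by side, the 5 stefins among the members, without Csta1, exceeded the 11 cysteine proteases in every hairloss library. The ratio of summed stefin to summed protease FPKM was 17.7, 6.47, 12.1 and 7.26 in hairloss skin and 10.1, 0.467, 0.225 and 0.338 in wildtype skin at days 0, 16, 19 and 28. Wildtype skin thus held more RNA of these 5 stefins than of the proteases only at day 0. For the 2 secreted cystatins the ratio was 0.391, 2.33, 3.47 and 1.74 in hairloss skin and 0.511, 4.04, 4.83 and 2.30 in wildtype skin. Here hairloss was the lower of the pair at each day. The protease sums were 495, 1931, 1253 and 723 FPKM in hairloss skin and 409.7, 1149.97, 823 and 908 FPKM in wildtype skin. These are ratios of RNA levels and not of protein or activity.

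**Figure D5:**
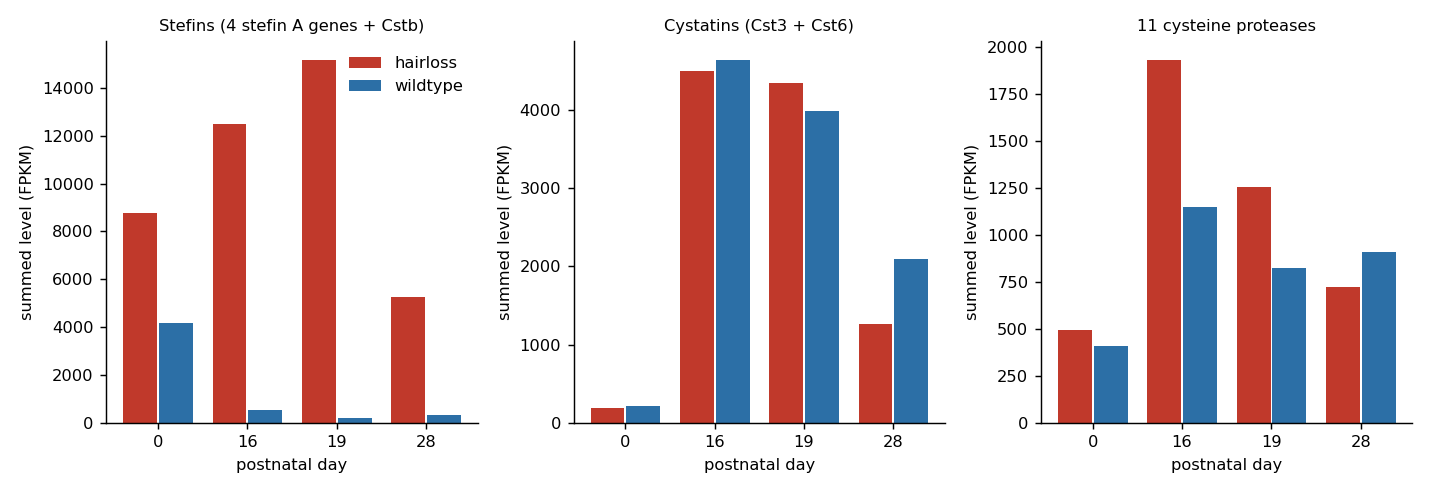
Summed FPKM of the 5 stefins, of the secreted cystatins Cst3 and Cst6, and of 11 cysteine proteases by postnatal day, with hairloss bars left of wildtype bars and a separate linear axis for each panel. Stefins are at 12496 FPKM in hairloss and 537 FPKM in wildtype skin at day 16, while the secreted cystatins are at 4500.3 and 4641 FPKM.

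Among other proteins of the cornified envelope, Flg, the gene of filaggrin, stood at 1743, 1139, 1361 and 1932 FPKM in hairloss skin and at 1847, 73.2, 89.1 and 195 FPKM in wildtype skin. The newborn pair was close, and at the 3 later days hairloss was past 2-fold higher. Its mean log2 difference was 2.77 ± 0.76 (SE), with an adjusted p of 0.331 by limma. Loricrin, Lor, did not share this course, at 92.8, 40.9, 72.5 and 75.4 FPKM in hairloss skin and 127, 77.4, 156 and 51.8 FPKM in wildtype skin. Tgm1, the transglutaminase that crosslinks the envelope, stood at 19.2, 35.3, 32.6 and 20.6 FPKM in hairloss skin and at 26.6, 69.5, 28.4 and 50.2 FPKM in wildtype skin. Of the 8 envelope genes 0 passed the adjusted threshold in limma and 1 was higher at an unadjusted p below 0.05.

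The genes most like each inhibitor were found by the Pearson correlation of log2(FPKM + 1) over the 8 libraries among 8682 protein-coding genes that reached 10 FPKM in a library. For the stefin A sum they were Kcmf1 (0.986), Sprr2d (0.981), Cd44 (0.975), Crk (0.971) and Lce3e (0.969). Sprr2d, a small proline-rich envelope protein gene, stood at 62.2, 39.8, 68.8 and 39.0 FPKM in hairloss skin and at 12.5, 0, 0 and 0 FPKM in wildtype skin, while Kcmf1 moved only between 24.6 and 27.4 FPKM in hairloss and 19.1 and 24.4 FPKM in wildtype skin. For Cstb they were Cdh1 (0.993), Ptpn1 (0.989), Epcam (0.986), Nfkbib (0.984) and Plbd1 (0.984). For Cst6 they included Phyh (0.990), Dstn (0.989), Krt80 (0.985) and Vti1b (0.985). For Cst3 they were Cd3g (0.980), Rnase4 (0.973), Kdm1b (0.969), Slc41a1 (0.967) and Lmbrd1 (0.966). The lists for the 4 inhibitors had no gene in common, and the correlations describe 8 libraries that share days and genotypes.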

How the data were processed

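The authors deposited, for each of 8 skin libraries, 1 value per Ensembl gene, and the header names no unit. These deposited values were read as FPKM because of their range and because Cuffdiff is listed, per the submitters' processing notes, beside cutadapt and the build mm10. Per the labels' protocols, RNeasy columns gave the RNA and TruSeq kits the libraries. Not given in the sources used here are the aligner, the annotation release, strandedness, the handling of reads that match several copies and the number of animals per library.

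Genotypes and days came from the labels, with 1 library per genotype and day, so p-values measure the spread of the genotype difference over days. Members were described as FPKM and as differences of log2(FPKM + 1), with no test. Genes that are no members were tested with limma 3.58.1 in R 4.3.3 (trend and robust, day as a 4-level block, two-sided, Benjamini-Hochberg adjustment, threshold 0.05) over the 18724 genes that reached 1 FPKM in a library, and the fit was tested on simulated data. Depth was estimated from the value of 1 fragment in genes with a single transcript of more than 1000 bases. Coordinates, gene types and coding sequences came from GENCODE M21 and promoters from RefSeq. Other work used Python 3.11.15, pandas 2.3.3, scipy 1.17.1 and biopython 1.88.

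The members and gene lists were chosen with earlier results of these data known. Named genes were all members, every cysteine protease, at most 6 genes per other list by mean absolute difference, and the 5 genes most like the stefin A sum, Cstb, Cst3 and Cst6. One gene that this rule names is not reported here. Csta1, Csta2, Csta3, Krt6b, S100a8, Ly6g and Gm15845 were named after their values were seen. Alternatives changed the constant added before logs (0.1 and 5), the scaling, the filter, the block for day and the days used.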

Additional observations from a re-analysis of the deposited data

Results flagged for a closer look

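Serpinb3a, an inhibitor of cysteine proteases, differed between the genotypes in opposite directions at different days. The log2(FPKM + 1) difference, hairloss minus wildtype, was -2.33 at day 0, 4.44 at day 16, 4.76 at day 19 and 3.22 at day 28. Ctse, an aspartic cathepsin, also changed direction, at -1.80 at day 16, 1.59 at day 19 and -5.95 at day 28. Tgm3, the transglutaminase of the hair follicle, stood at 1.62 at day 19 and -1.39 at day 28. With 1 library per genotype and day, the difference between days was not tested for any of the 3 genes. The 7 measured hair shaft markers were past 2-fold lower in hairloss skin at day 16, higher at day 19 and lower at day 28, and their part in the Ctse and Tgm3 values was not tested.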

How the results depend on the processing

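The log2 difference of the stefin A sum kept its direction at all 4 days under every alternative run. With 5 added before logs it was 8.45 at day 16 and 9.23 at day 19. Scaled to protein-coding totals without keratins it was 1.05 at day 0 and 6.50 at day 28, where this scaling moved the median of all genes to 0.10. With all 10 genes of the row summed, Csta1 among them, it was 7.64, 7.68 and 5.72 at days 16, 19 and 28. Without Stfa3, chosen after seeing the data, it was 0.37, 7.60, 8.95 and 6.15 at days 0, 16, 19 and 28. No member changed sign in any alternative. Over all genes, limma called 5 higher and 2 lower. These counts were 3 and 0 with 5 added, 2 and 0 with no filter, and 4 and 4 with no block for day. Leaving out each day in turn gave 1 to 5 higher and 0 to 1 lower, with the lowest count of higher calls without day 28. The causes were not tested. The day block pairs the hairloss and wildtype libraries of a day in the limma fit, and the labels give no replicate numbers for any further pairing. The main limits are that no group was replicated, that sex markers matched at day 16 alone, and that wildtype Stfa2 at days 16 and 19 rests on about 8 and 2 fragments.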
